A study of Mus musculus with 32 samples.

Results

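The genes described here are 30 genes of cholesterol synthesis and its control by sterol regulatory element-binding proteins (SREBPs), out of 35458 genes to which reads were assigned in mouse parathyroid cells. They were chosen by name, with earlier results of these data known. They comprise 7 enzymes from acetyl-CoA to farnesyl diphosphate and 11 enzymes from squalene to sterols. The others are 6 genes of SREBP control and sterol transfer, and 6 SREBP-driven genes of fatty acid synthesis. For each gene, estimated reads were summed over its Ensembl transcripts in each of 32 libraries. All 30 had enough reads to be tested in the comparison of neonatal rat-host cells with adult cells.

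RNA came from small pools of 10 to 20 parathyroid gland cells, picked for the red fluorescence of tdTomato, a reporter placed behind Pth so that it marks cells making parathyroid hormone. cDNA was made with a SMART-Seq HT kit. There were 8 experiments of 4 libraries each. The 2 control experiments used cells that had developed in mice of the strain C57BL/6-Pthtm1(P2A-tdTomato)/+, labelled male at 8 weeks in experiment 1 and female at 11 weeks in experiment 2. In the other arms the cells derived from mouse embryonic stem cells (ESCs) carrying Pth-tdTomato, and the hosts lacked Gcm2, the transcription factor that parathyroid development requires. Mouse-host cells had complemented Gcm2-/- hosts on a BDF1B6 background and were taken at 9 weeks; the first 3 experiments are labelled female and the fourth, experiment 4, male. Rat-host cells had complemented a Gcm2-/- Wistar rat and were taken from neonates of unknown sex. Graft cells were grafted ESC-derived cells that the labels trace to Gcm2-/- mice, labelled male at 12 weeks. The labels do not say whether replicates came from separate animals, so the error behind each p-value is that between libraries or experiments as sampled, and part of it may be technical. Only the rat host was neonatal, so age and host species cannot be told apart.

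Cells build cholesterol from acetyl-CoA through mevalonate, farnesyl diphosphate and squalene, and the path up to farnesyl diphosphate also supplies lipid anchors and ubiquinone. When membranes of the endoplasmic reticulum are poor in sterol, SCAP escorts SREBPs to the Golgi, where they are cut, and the released fragment activates the pathway's genes. INSIG proteins hold SCAP back when sterol is plentiful. SREBP-2 acts mainly on cholesterol genes and SREBP-1 mainly on fatty acid genes.

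Libraries of control experiment 1 held 29471254 to 32264864 reads and the other 28 libraries held 9470744 to 15098391. Pth lay between 42169.9 and 45370.5 CPM in rat-host libraries and between 71404.5 and 136801 CPM in adult libraries. Cells were picked by a reporter behind Pth, so high Pth was set by the selection. Gcm2 lay at 635 to 780 CPM in rat-host libraries and at 494 to 1477 CPM in adult libraries. Of 10 listed parathyroid markers, 4 had a positive log2 fold change in rat host against adult, and edgeR called 2 of the 10 lower. Adipocyte markers, which could bring lipid genes with them, summed to 0 CPM in each rat-host library and to at most 23.5 CPM in adult libraries, with Adipoq, Lep, Fabp4 and Pck1 at 0 throughout. Fibroblast markers summed to 1.2 to 12.99 CPM in rat-host libraries, and 2 adult libraries stood apart with 2405 CPM (mouse host experiment 2, replicate 4) and 3262 CPM (control experiment 2, replicate 3). Next came graft replicate 1 with 415 CPM and graft replicate 4 with 88.7 CPM. CPM here is the count scaled to library size after TMM scaling, a correction for differences in RNA composition.

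In neonatal rat-host cells, RNA of 4 cholesterol and lipid genes was higher than in adult parathyroid cells: Acat2, Hmgcs1, Dhcr7 and Scd2. They come from the start of the mevalonate path, the last step of sterol synthesis and fatty acid desaturation, and their mean levels were 2.71 to 4.68 times the adult mean. No member was called lower. The test set the summed counts of the rat-host experiment against those of the 7 adult experiments, and 4 of 30 members passed an adjusted p of 0.05, against 1.01% of all 15698 genes tested (0.51% higher and 0.503% lower). At an unadjusted p below 0.05 there were 12 members, all higher, beside 11.9% of all genes (6.78% higher and 5.08% lower). The members were chosen with earlier results of these data known, so these shares are not a test of the list. The median log2 fold change was 0.43 over the members and -0.10 over all genes tested, and 23 members had a positive sign. Scaling to total counts without TMM moved the median of all genes to 0.11, called 192 genes higher and 78 lower, and left 27 members positive; the same 4 members were called under both scalings. In bulk pools, fewer cells expressing a gene and less RNA per cell cannot be told apart.

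**Figure D1:**
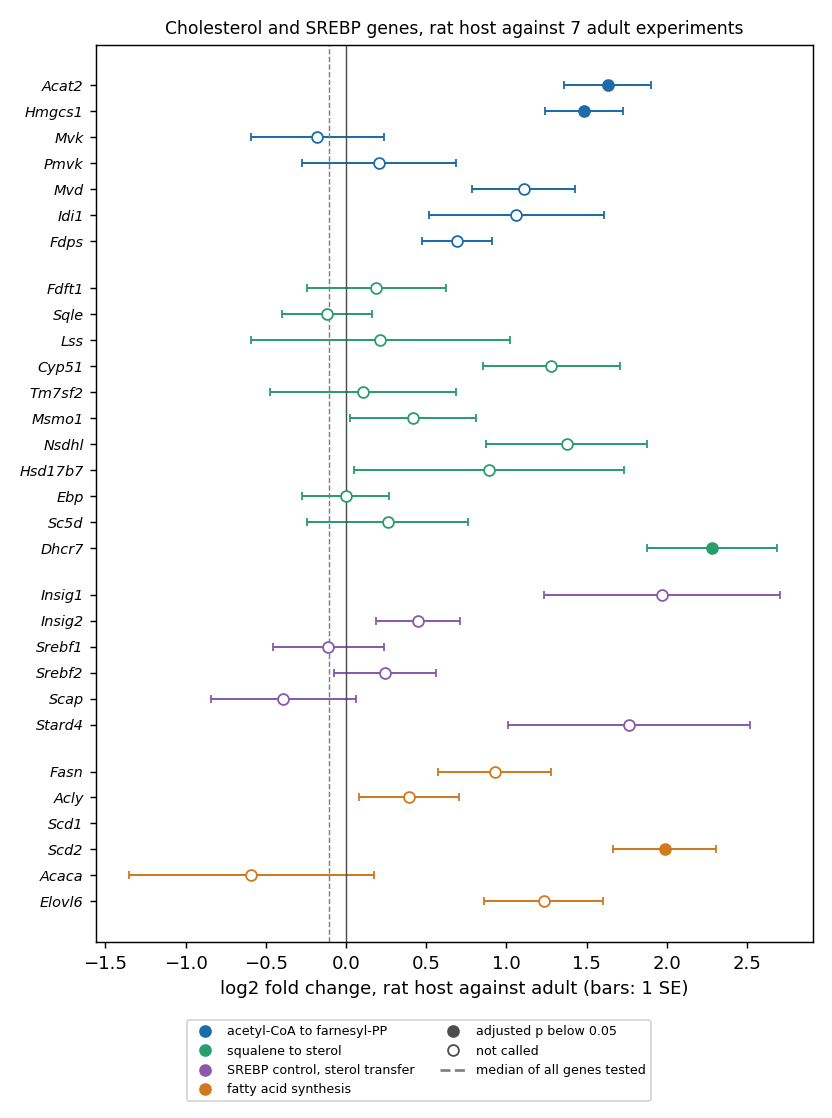
The log2 fold change of rat-host against adult cells is shown for 29 members with its standard error, by role; Scd1, nearly without reads, is left out. The 4 filled points, Acat2, Hmgcs1, Dhcr7 and Scd2, passed the adjusted test and lie between 1.48 and 2.28, well to the right of the dashed median of all genes at -0.10.

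The promoter windows of genes that rose, and of the paralogs Insig1 and Insig2, are printed to show which SREBP-related letters each carries. They run from 250 bases before to 50 bases after the annotated start, are read 5′ to 3′ on the gene's strand, and come from RefSeq on GRCm38.p6. Capitals mark matches, on either strand, to a sterol regulatory element (TCACNCCAC), an NF-Y box (CCAAT) or an E-box (CACGTG), which are bound by SREBPs, their frequent partner NF-Y and basic helix-loop-helix factors. Hmgcs1 lies at chr13:119690101-119690400 (plus strand), Acat2 at chr17:12960676-12960975 (minus), Dhcr7 at chr7:143829964-143830263 (plus), Insig1 at chr5:28071162-28071461 (plus) and Insig2 at chr1:121327975-121328274 (minus).
Hmgcs1: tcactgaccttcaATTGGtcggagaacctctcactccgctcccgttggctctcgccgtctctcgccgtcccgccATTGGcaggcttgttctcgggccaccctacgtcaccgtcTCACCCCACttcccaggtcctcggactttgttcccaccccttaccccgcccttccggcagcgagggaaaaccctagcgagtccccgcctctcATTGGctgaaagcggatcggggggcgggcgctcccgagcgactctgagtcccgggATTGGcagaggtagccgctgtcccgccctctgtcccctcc
Acat2: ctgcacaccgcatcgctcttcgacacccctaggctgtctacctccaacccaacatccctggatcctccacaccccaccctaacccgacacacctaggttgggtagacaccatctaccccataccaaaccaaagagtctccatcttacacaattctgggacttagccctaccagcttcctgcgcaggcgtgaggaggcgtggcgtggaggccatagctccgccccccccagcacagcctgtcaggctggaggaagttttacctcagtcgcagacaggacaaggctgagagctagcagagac
Dhcr7: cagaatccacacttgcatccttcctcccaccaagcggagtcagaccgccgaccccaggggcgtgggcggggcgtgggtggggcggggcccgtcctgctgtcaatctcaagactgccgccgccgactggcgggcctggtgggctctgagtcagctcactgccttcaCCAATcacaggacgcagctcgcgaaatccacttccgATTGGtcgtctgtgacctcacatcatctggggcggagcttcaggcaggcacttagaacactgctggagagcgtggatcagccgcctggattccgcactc
Insig1: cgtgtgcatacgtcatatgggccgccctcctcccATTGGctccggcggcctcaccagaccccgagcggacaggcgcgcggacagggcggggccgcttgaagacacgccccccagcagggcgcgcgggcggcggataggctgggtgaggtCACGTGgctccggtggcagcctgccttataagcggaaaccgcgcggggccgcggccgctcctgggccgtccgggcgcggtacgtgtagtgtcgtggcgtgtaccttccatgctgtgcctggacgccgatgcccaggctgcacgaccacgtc
Insig2: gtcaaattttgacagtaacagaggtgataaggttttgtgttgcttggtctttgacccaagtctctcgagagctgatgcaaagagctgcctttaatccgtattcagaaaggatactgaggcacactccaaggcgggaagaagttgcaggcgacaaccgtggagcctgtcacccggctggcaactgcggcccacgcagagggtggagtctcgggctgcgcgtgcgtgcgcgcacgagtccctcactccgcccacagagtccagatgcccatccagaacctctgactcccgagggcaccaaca
The Hmgcs1 window holds a sterol regulatory element whose first base is at -137 from the start, and 4 NF-Y boxes. Dhcr7 has 2 NF-Y boxes and Insig1 has 1 NF-Y box and 1 E-box, while no capitals appear in Acat2 or Insig2. Windows were found for 24 of the 30 members; those of Fdft1, Fdps, Scd1, Scd2, Sqle and Stard4 were not used here. An NF-Y box occurred in 17 of the 24 windows (70.8%) against 37.4% of 32817 promoter windows. A GC box (GGGCGG), not marked in capitals, occurred in 20 of the 24 (83.3%) against 35.6%. The 32817 windows cover all annotated starts, while each member has 1, chosen as the nearest to its most abundant transcript. The shares are therefore not compared on equal terms. The sterol regulatory element occurred in 1 of 24 against 1.24%, and the E-box in 4 of 24 (16.7%) against 7.15%. These are letter matches in a short window only. The Dhcr7 window was the closest to its most abundant transcript among 3 annotated starts, yet lies 588 bases from that transcript's start. The windows of Pmvk, Fasn and Msmo1 also lie away from theirs, by 453, 452 and 214 bases.

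Of the 7 genes of the first steps, from acetyl-CoA to farnesyl diphosphate, 6 had a positive log2 fold change in rat-host cells and 2 were called. Acat2, the cytosolic thiolase that joins acetyl-CoA units, had 93.2, 91.9, 125 and 115 CPM in the 4 rat-host libraries. In the 28 adult libraries it ranged from 0.163 to 66.7 CPM with a median of 37.9. Every rat-host library lay above every adult library. Acat2 rose by 1.63 on the log2 scale (SE 0.27, edgeR quasi-likelihood test, adjusted p = 0.0272), from an adult mean of 35.9 ± 7.09 CPM (SD, n = 7 experiments) to 106 ± 16.5 CPM (SD, n = 4 libraries). Among adult experiments its mean ran from 23.6 in the graft to 47.1 CPM in control experiment 2. Left out in turn, replicate 4 of mouse-host experiment 1, graft replicates 1 and 4, control experiment 1 and mouse-host experiments 2, 3 and 4 each took the edgeR adjusted p just past the threshold, to between 0.0511 and 0.0573.

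Hmgcs1, which makes HMG-CoA from acetyl-CoA units, had 41.9, 70.0, 88.3 and 95.6 CPM in rat-host cells. Adult libraries spanned 4.67 to 55.4 CPM with a median of 26.3. The groups overlapped, since 4 adult libraries reached the lowest rat-host library, while the other 3 rat-host libraries exceeded all 28. Hmgcs1 rose by 1.48 (SE 0.24, edgeR adjusted p = 0.0254). Its adult experiment means were close together, from 23.0 in the graft to 31.1 CPM in control experiment 1. The call was lost, at edgeR adjusted p-values of 0.0504 to 0.0649, without replicate 1 of control experiment 1, replicate 3 of mouse-host experiment 1, graft replicate 1, control experiment 2, or mouse-host experiment 2, 3 or 4.

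Mvd, the mevalonate diphosphate decarboxylase, and Fdps, the farnesyl diphosphate synthase, did not pass the adjusted test. Mvd had 28.6, 45.5, 48.7 and 66.7 CPM in rat-host cells against 0.352 to 57.3 CPM (median 21.6) in adult libraries, a log2 fold change of 1.11 (SE 0.32, edgeR adjusted p = 0.173). Fdps had 116, 154, 164 and 142 CPM against 29.5 to 133 CPM (median 91.1), a log2 fold change of 0.69 (SE 0.22, edgeR adjusted p = 0.218). For Fdps 3 adult libraries, and for Mvd 7, reached the lowest rat-host library. Idi1, the isopentenyl diphosphate isomerase, was similar in size at 1.06 but noisier (SE 0.54, edgeR adjusted p = 0.513). The 2 kinases of the path stood apart from these: Mvk, mevalonate kinase, had a log2 fold change of -0.18 (SE 0.41) and Pmvk, phosphomevalonate kinase, 0.21 (SE 0.48), with rat-host libraries inside the adult range in both cases. Summed over the 7 genes, rat-host libraries held 358 to 510 CPM and adult libraries 170.0 to 369 CPM, so the ranges overlapped slightly.

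**Figure D2:**
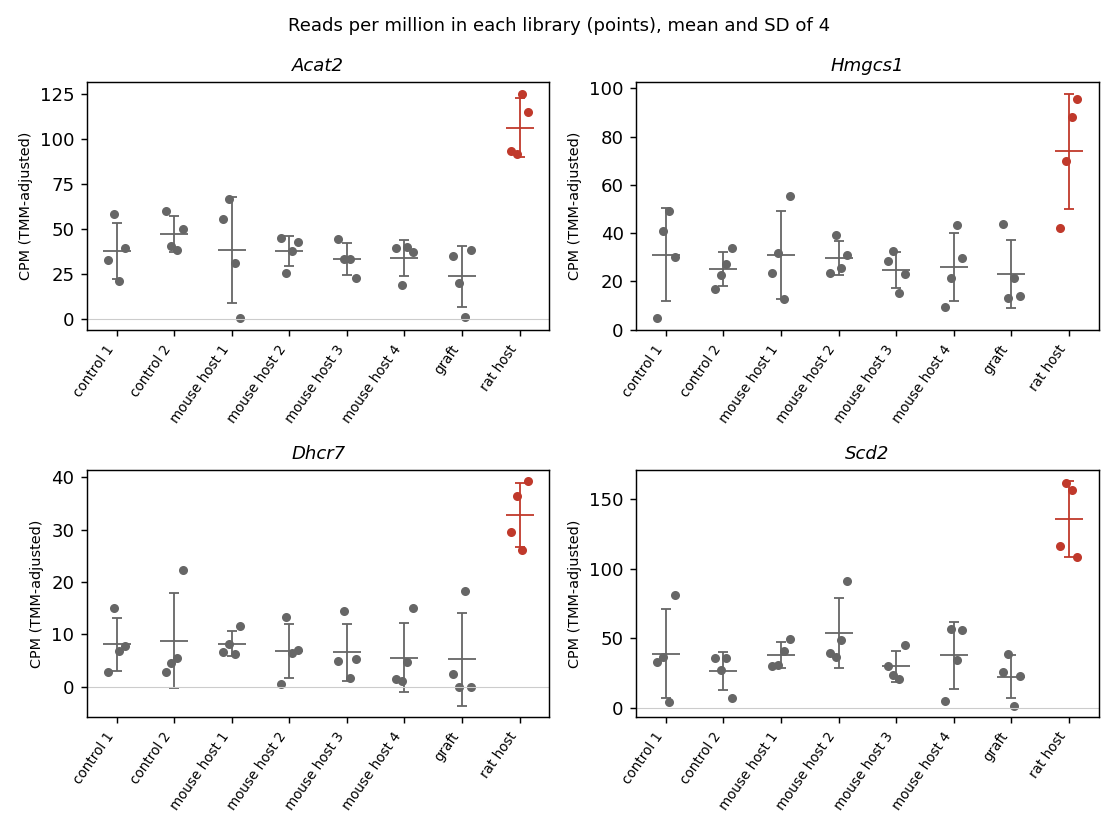
Each point is the CPM of 1 library, by experiment, for the 4 members called higher in rat-host cells, with the mean and SD of the 4 libraries. The rat-host libraries (red) of Acat2, Dhcr7 and Scd2 lie above all 28 adult libraries; for Hmgcs1 the lowest rat-host library, at 41.9 CPM, lies among the adult ones.

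Of the 11 genes from squalene to sterols, 9 had a positive sign in rat-host cells but only Dhcr7, which encodes the enzyme that reduces 7-dehydrocholesterol to cholesterol, was called. It had 29.5, 36.5, 26.1 and 39.3 CPM in rat-host cells. Adult libraries held 0 to 22.3 CPM with a median of 5.86, so the groups did not overlap. Dhcr7 rose by 2.28 (SE 0.41, edgeR adjusted p = 0.0319), and its rat-host mean of 32.8 ± 6.08 CPM (SD, n = 4) was 4.68 times the adult mean. The 7 adult experiment means were narrowly spaced, from 5.18 in the graft to 8.80 CPM in control experiment 2, although single libraries within them varied from 0 to 18.3 CPM in the graft alone. Without graft replicate 3, that highest graft library, the edgeR adjusted p was 0.225, and without replicate 4 of mouse-host experiment 4 it was 0.0943. Leaving out replicate 1 of control experiment 2, or control experiments 1 or 2 or mouse-host experiments 2, 3 or 4, gave 0.0502 to 0.0649.

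Across the whole table, every rat-host library lay above every adult library for 1.08% of genes and below every adult library for 0.822%. Among the members, 3 had all rat-host libraries above (Acat2, Dhcr7 and Scd2) and none had all below.

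Cyp51 and Nsdhl, which carry out demethylation steps that turn lanosterol towards cholesterol, had large but uncalled differences. Cyp51 had 57.7, 65.1, 64.0 and 79.6 CPM in rat-host cells against 5.91 to 81.4 CPM (median 24.9) in adult libraries, and only graft replicate 3 among adults exceeded the lowest of them. Its log2 fold change was 1.28 (SE 0.43, edgeR adjusted p = 0.236). Nsdhl, on the X chromosome, had 148, 128, 61.9 and 122 CPM against 16.5 to 99.0 CPM (median 42.5). Its log2 fold change was 1.38 (SE 0.50, edgeR adjusted p = 0.294), and 3 of the 4 rat-host libraries exceeded every adult library. Both genes were called when single libraries were tested in place of experiment sums. The error in those fits is that between libraries within an experiment. Differences between experiments do not enter it, so these calls carry less weight.

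The first committed enzymes of this branch did not share that pattern. Fdft1, the squalene synthase, had a log2 fold change of 0.19 (SE 0.43), and Sqle, the squalene epoxidase, had -0.12 (SE 0.28), with 74.8 to 128 CPM in rat-host libraries inside the adult range of 44.2 to 181. Lss, which closes the sterol rings, had 0.22 (SE 0.81), and Ebp, a sterol isomerase, -0.00 (SE 0.27), with a rat-host mean of 64.5 CPM and an adult mean of 66.7. The remaining values were 0.42 for the methyl oxidase Msmo1, 0.89 for Hsd17b7, 0.26 for the desaturase Sc5d and 0.11 for the reductase Tm7sf2. The lowest edgeR adjusted p among these 8 genes was 0.731. Under scaling to total counts the signs of Sqle and Ebp, and those of Mvk and Srebf1, were positive.

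Among the genes that control SREBPs, edgeR called none on experiment sums, and the genes for the SREBPs and their escort lay inside the adult range. Srebf1, which encodes SREBP-1, had 79.5, 64.2, 142 and 152 CPM in rat-host cells against 39.3 to 272 CPM (median 113) in adult libraries. Srebf2, which encodes SREBP-2, had 70.1, 126, 74.4 and 55.1 CPM against 30.9 to 141 CPM (median 65.2). Scap had 51.0, 39.4, 52.7 and 40.2 CPM against 18.9 to 120 CPM (median 59.4). Rat-host values of all 3 fell inside the adult range, with log2 fold changes of -0.11 (SE 0.35), 0.24 (SE 0.32) and -0.39 (SE 0.45). The smallest differences of any member were those of Ebp and Tm7sf2, followed by Srebf1.

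The 2 INSIG genes differed in level and in spread. Insig1, itself a classical SREBP target, had 22.2, 7.77, 9.61 and 32.1 CPM in rat-host cells against 0 to 28.8 CPM (median 1.91) in adult libraries. Reads of Insig1 were missing from 10 of the 28 adult libraries and from none of the rat-host ones, and 6 adult libraries reached the lowest rat-host value. Its log2 fold change of 1.97 (SE 0.74) did not pass (edgeR adjusted p = 0.306), but limma voom on single libraries, with a random effect per experiment, called Insig1 (adjusted p = 0.0101, against up to 0.705 over all 51 alternatives). Insig2 had 83.6, 77.8, 46.9 and 76.2 CPM against 27.9 to 87.4 CPM (median 52.9), a log2 fold change of 0.45 (SE 0.26, edgeR adjusted p = 0.593). Stard4, a small carrier that moves sterol between membranes and is also an SREBP target, had 14.0, 21.3, 23.3 and 5.80 CPM against 0 to 17.0 CPM (median 3.23). Its log2 fold change was 1.76 (SE 0.75, edgeR adjusted p = 0.39), with 9 adult libraries at or above the lowest rat-host library.

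In the fatty acid branch the called gene was Scd2, a stearoyl-CoA desaturase that introduces a double bond into saturated fatty acids. Scd2 had 116, 162, 156 and 108 CPM in rat-host cells, and 1.48 to 90.9 CPM (median 34.9) in adult libraries, with no overlap. It rose by 1.99 (SE 0.32, edgeR adjusted p = 0.0245), from an adult mean of 35.3 ± 10.4 CPM (SD, n = 7) to 136 ± 27.3 CPM (SD, n = 4). Left out in turn, only graft replicate 2 took it past the threshold (edgeR adjusted p = 0.0503). Its paralog Scd1 was nearly silent: the rat-host libraries held 2 reads in all, 20 of the 28 adult libraries held none, and the highest adult library had 18.6 CPM, so no fold change is given. Reads from the identical stretches of these paralogs could be assigned to either gene.

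Elovl6, which lengthens palmitate, and Fasn, the fatty acid synthase, had differences that did not pass. Elovl6 had 23.7, 32.2, 24.3 and 29.0 CPM against 0.0724 to 25.1 CPM (median 12.3), and only 1 adult library, in control experiment 1, lay above the lowest rat-host value. Its log2 fold change was 1.23 (SE 0.37, edgeR adjusted p = 0.196). Fasn had 33.1, 34.5, 44.8 and 29.7 CPM against 0.217 to 44.3 CPM (median 17.0), a log2 fold change of 0.93 (SE 0.35, edgeR adjusted p = 0.313). Acly, which makes cytosolic acetyl-CoA from citrate, had 0.39 (SE 0.31). Acaca, which makes malonyl-CoA, had -0.59 (SE 0.76) at a low level of 3.35 CPM in rat-host cells and 5.33 CPM in adults.

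Ranked by experiment mean, the rat host was the highest of the 8 experiments for 14 members, against 17.8% of all genes tested, and the lowest for Acaca alone, against 14.9%. The 14 are the 12 members with an unadjusted p below 0.05, together with Idi1 and Insig2.

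**Figure D3:**
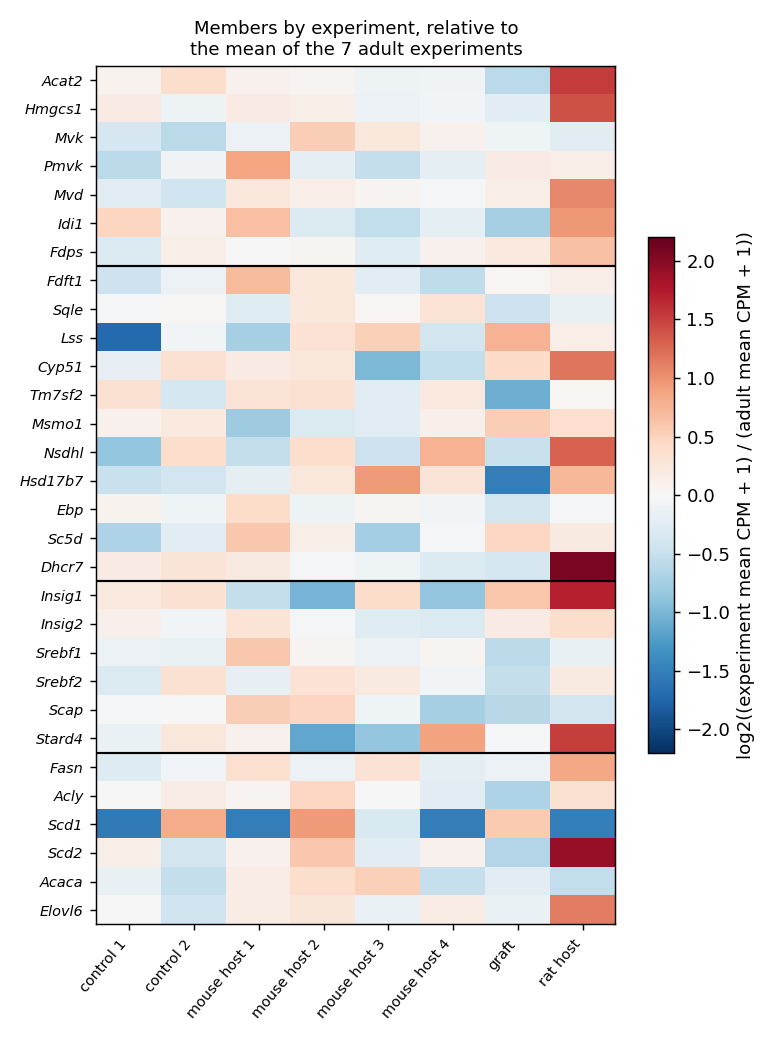
Each cell is the mean CPM of a member in an experiment relative to the mean of the 7 adult experiments, on a log2 scale with 1 CPM added. The rat-host column is the reddest for 14 members, with Dhcr7 deepest at 2.08, while the genes for the SREBPs and Scap stay pale in it.

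Per transcript length, the order of the members shifted between adult and rat-host cells. In TPM, a measure of transcript abundance that corrects for length, Fdps had the highest level in both, at 91.9 ± 12.5 TPM over adult experiments (SD, n = 7) and 190 ± 29.6 TPM in rat-host libraries (SD, n = 4). Next in adult cells were Ebp (43.0 TPM), Msmo1 (42.4) and Insig2 (39.1), whose neighbouring levels differed by less than their spread. Acat2 stood at 17.5 TPM, rank 13, in adult cells and at 67.5 TPM, rank 4, in rat-host cells. Hmgcs1 went from 8.59 to 32.7 TPM, Scd2 from 6.77 to 32.6, Dhcr7 from 3.77 to 20.9 and Nsdhl from 22.7 to 75.2. At the other end lay Insig1 with 1.85, Acaca with 1.13 and Scd1 with 0.458 TPM in adult cells. TPM carries no TMM correction, and so differences on this scale include the shift that total-count scaling also showed.

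Cell-cycle RNA moved with the rat-host group. All 25 of 25 listed cell-cycle genes had a positive log2 fold change (median 2.85), none passed the adjusted test and 14 had an unadjusted p below 0.05. Their summed level was 572, 2538, 1830 and 3893 CPM in rat-host replicates 1 to 4 and 141 to 1627 CPM in adult libraries. Rat-host replicate 1 had a cell-cycle sum inside the adult range but above the adult median of 249 CPM. It had 93.2 CPM of Acat2, 29.5 of Dhcr7 and 116 of Scd2, each above all adult libraries. With that library alone as the rat host, a choice made after seeing the data, the log2 fold change of Hmgcs1 was 0.62. A single library cannot show how rat-host libraries vary, so no calls are given for that fit. The 3 adult libraries with the highest sums, 1627, 1367 and 1202 CPM, had 44.3, 59.8 and 39.3 CPM of Acat2 and 30.4, 36.1 and 81.4 CPM of Scd2, the last being the second highest of the 28 adult values. The part of cell-cycle RNA in these results was not tested.

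**Figure D4:**
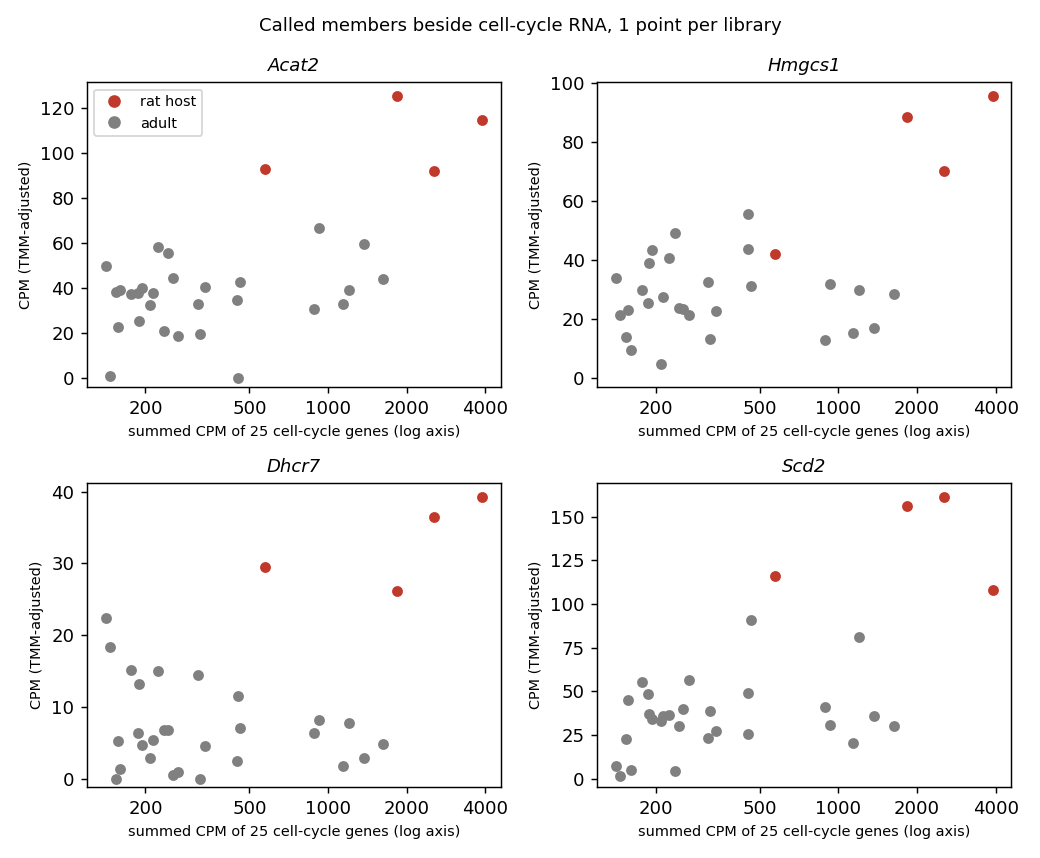
CPM of the 4 called members is plotted against the summed CPM of 25 cell-cycle genes (log axis), 1 point per library, rat host in red. The leftmost rat-host point, at 572 CPM of cell-cycle RNA, is above every adult point for Acat2, Dhcr7 and Scd2 and among them for Hmgcs1.

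Neighbouring pathways held few calls. No gene was called among 11 other sterol-pathway genes, 10 genes of the isoprenoid branch, 11 tested genes of sterol uptake and transport, 8 tested genes of sterol export and LXR response, or 13 other genes of fatty acid synthesis. Among 12 genes of fatty acid oxidation, Acadvl, the very-long-chain acyl-CoA dehydrogenase, fell by 1.01 (SE 0.19, edgeR adjusted p = 0.0433). The hormone gene Pth fell by 1.09 and the granule gene Chga by 0.77 in the same comparison.

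Set against the mouse-host experiments only, cells of the same ESC-derived kind, rat-host cells showed values close to those against all adults, and the 2 comparisons share the rat-host and mouse-host libraries. Only Acat2 was called, with a rise of 1.65 (SE 0.22, edgeR adjusted p = 0.0318), and 0.643% of all genes were called. At an unadjusted p below 0.05 there were 9 members, beside 11.6% of all genes. Scd2 had 1.81 (SE 0.31, edgeR adjusted p = 0.0511), Dhcr7 2.32 (SE 0.42, edgeR adjusted p = 0.0671) and Hmgcs1 1.45 (SE 0.26, edgeR adjusted p = 0.0673). These fold changes are near those against all adults, and the test rested on 4 residual degrees of freedom against 6 there. Insig1 had 2.50 (SE 0.72, edgeR adjusted p = 0.21) here. The call of Acat2 was lost, leaving 0 members called, when any of control experiments 1 and 2 or mouse-host experiments 2, 3 and 4 was left out, and also without replicate 4 of mouse-host experiment 1. It was lost too when single libraries were tested, where Cyp51, Scd2, Nsdhl, Msmo1, Fdps and Hmgcs1 were called instead. Without rat-host replicate 1 there were 3 calls.

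ESC-derived cells that matured in a mouse host were compared with cells of control mice, and no member was called. No gene of 15698 was called by edgeR (0%) and 691 (4.4%) had an unadjusted p below 0.05, as did 1 member; DESeq2 called 119 genes and 0 members. The smallest unadjusted p among members was that of Mvk, with 10.6 to 66.7 CPM (median 29.9) in 16 mouse-host libraries against 13.0 to 23.0 CPM (median 22.0) in 8 control libraries, a log2 fold change of 0.69 (SE 0.28, edgeR adjusted p = 0.892). Mvd had 0.53 (SE 0.24), Hsd17b7 0.99 (SE 0.53) and Msmo1 -0.44 (SE 0.25). The 4 genes that were higher in rat-host cells had -0.27 (Acat2), -0.02 (Hmgcs1), -0.32 (Dhcr7) and 0.30 (Scd2). These values lie near 0, and the standard errors of 0.19 to 0.36 limit how small a difference could be seen.

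Grafted cells were compared with the mouse-host cells, again with no member called by edgeR on experiment sums, beside 0.115% of all genes called; 5 members and 12.4% of all genes had an unadjusted p below 0.05. Here 11 of 30 members had a positive sign, with a median log2 fold change of -0.36 against -0.09 over all genes. Hsd17b7, a ketoreductase of sterol synthesis, had 0, 0, 7.01 and 0 CPM in the graft against 0.188 to 23.9 CPM (median 6.86) in mouse-host libraries. All graft libraries but replicate 3 thus held no read, and the log2 fold change was -2.54 (SE 0.79, edgeR adjusted p = 0.259). Msmo1 lay on the other side, with 108, 136, 79.3 and 104 CPM against 25.5 to 116 CPM (median 57.7), a log2 fold change of 0.86 (SE 0.30, edgeR adjusted p = 0.31). Acly had 103, 56.6, 75.4 and 57.1 CPM against 32.3 to 212 (median 130), with -0.77 (SE 0.27), and Tm7sf2 had 4.06, 3.84, 0.738 and 12.0 CPM against 2.47 to 27.8 (median 14.4), with -1.39 (SE 0.55). Graft values of all 4 overlapped those of the mouse host. DESeq2 called Hsd17b7, and limma voom and the fits on single libraries called Msmo1. Without graft replicate 3, Hsd17b7 was called (lowest edgeR adjusted p of any member = 0.0299).

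**Figure D5:**
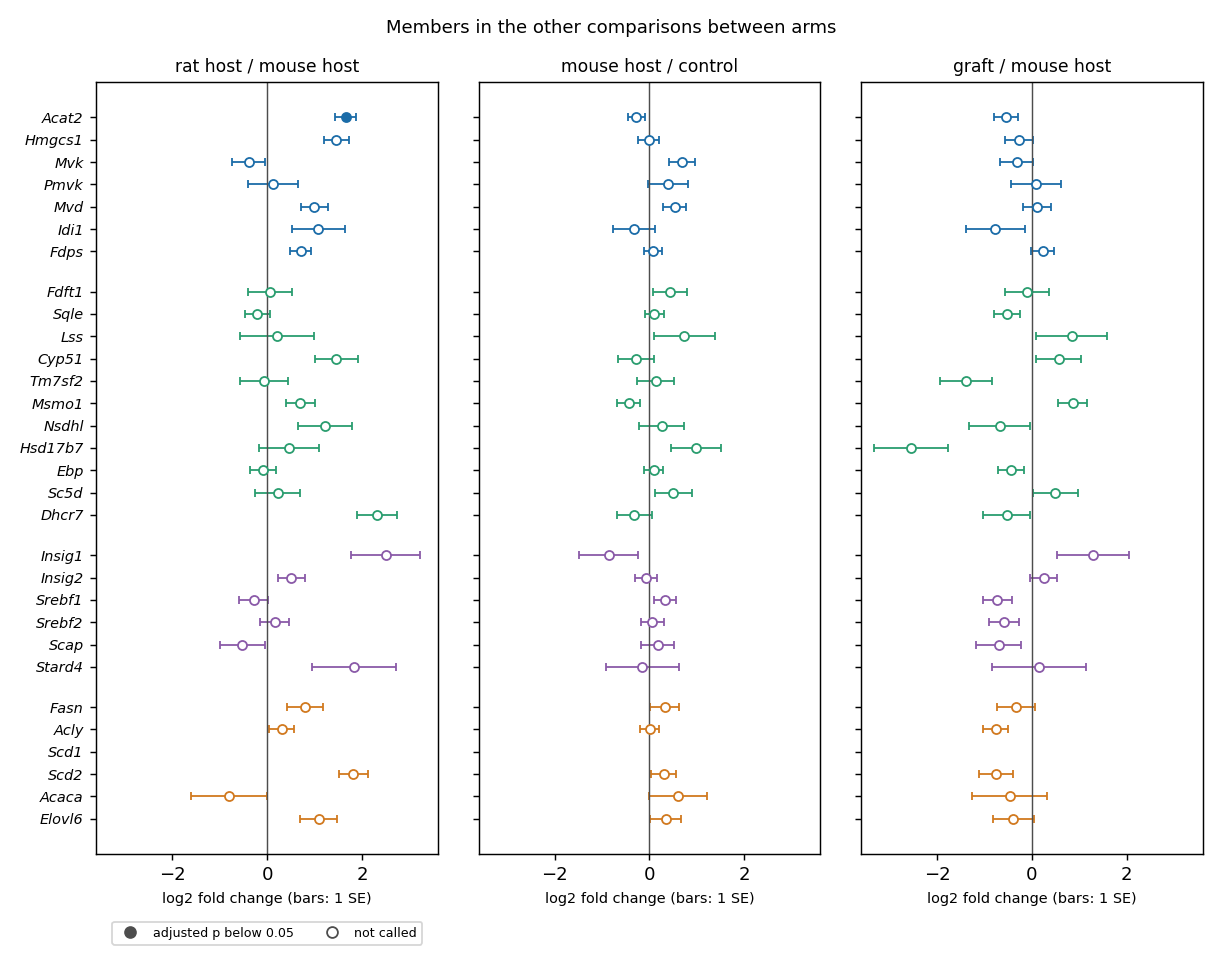
Log2 fold changes with standard errors are shown for 29 members in the 3 comparisons between arms. Acat2 in the left panel, at 1.65, is the only filled point; the middle panel, mouse host against control, is centred near 0, and in the right panel Hsd17b7 lies farthest out at -2.54.

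Experiments of the same arm differed in some members. Among the 4 mouse-host experiments, 29 members were tested over 16 libraries and 1 was called, against 1.29% of 12195 genes; 4 members and 12.5% of genes had an unadjusted p below 0.05. Nsdhl had 46.7, 24.4, 32.9 and 22.2 CPM in experiment 1, 42.6, 73.3, 73.4 and 51.9 in experiment 2, 42.3, 22.4, 36.8 and 31.1 in experiment 3, and 99.0, 83.9, 55.8 and 77.6 in experiment 4 (edgeR F-test, adjusted p = 0.0486). Experiments 2 and 4 were thus the high ones, and experiment 4 is the male-labelled one. The call was lost with the replicate number as a block, and in 13 of 16 fits that left out a library, where the lowest adjusted p of any member was 0.051 to 0.111. Pmvk was high in experiment 1, with 59.0, 87.3, 68.5 and 36.5 CPM against 15.3 to 42.0 in the other 3 experiments (edgeR adjusted p = 0.0981). Scap was lowest in experiment 4, with 19.4, 25.1, 50.8 and 50.7 CPM (edgeR adjusted p = 0.194), and Sc5d was highest in experiment 1, with 50.8, 40.4, 24.4 and 21.2 CPM (edgeR adjusted p = 0.315).

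Between the 2 control experiments, which differ in labelled sex, age and depth, no member was called, and 0.0173% of 11544 genes were. At an unadjusted p below 0.05 there were 3 members and 5.39% of genes. Nsdhl had 22.5, 16.5, 20.98 and 40.8 CPM in experiment 1 and 71.6, 61.8, 58.8 and 50.8 in experiment 2, without overlap, a log2 fold change of 1.28 (SE 0.32, edgeR adjusted p = 0.439), and DESeq2 called it. The female-labelled experiment was the higher one here, the reverse of the male-labelled experiment 4 among mouse hosts. Fdps had 67.6, 75.3, 85.2 and 68.4 CPM against 102, 96.7, 98.7 and 103, also without overlap, with 0.45 (SE 0.16, edgeR adjusted p = 0.805). Lss had 3.95, 0.755, 5.93 and 3.13 CPM against 11.6, 19.6, 13.7 and 7.13, with 1.93 (SE 0.83, edgeR adjusted p = 0.892), and Srebf2 had 0.66 (SE 0.31).

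The 4 called genes rested mostly on their main transcripts. Acat2-201 held 90.6% of the gene's reads, Scd2-201 96.4% and Hmgcs1-201 72.4%, while Dhcr7 reads were split between Dhcr7-202 (56.2%) and Dhcr7-211 (30.8%). Srebf1-201 held 62.2% of Srebf1 reads in rat-host and 62.5% in adult cells. Strand-aware counting is not given in the sources used here, so reads from overlapping genes cannot be told apart. Fdft1 shares 774 exon bases with Ctsb on the other strand, which held 310109 reads to 24170 of Fdft1, and Tm7sf2 shares 532 with Vps51, so both are uncertain. Cyp51 shares 166 exon bases with Akap9 on the other strand, which held 40694 reads to 14969 of Cyp51. Fdps shares 1124 with Gm43738 on the same strand, to which 57 reads were assigned. No exon overlap with another gene was found for Acat2 or Dhcr7. The gene overlapping Hmgcs1 on the other strand held 0 reads, as did Mir5114, which shares 61 bases with Scd2.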

How the data were processed

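Transcripts were quantified by the authors with Salmon on GRCm39, per the submitters' processing notes. Its version is not given in the sources used here, nor is the transcript annotation. Per the file headers, the deposited tables give for each transcript an estimated count of reads, its TPM and its lengths. Estimated counts were summed per gene and rounded to whole numbers; deposited TPM served for levels per length and 1 alternative (with 1 added before log2). Of 116747 transcripts, 115685 matched GENCODE M21 by Ensembl identifier, used for names only; the other 1062 held 0.493% of reads. All 30 member symbols matched.

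Counts were summed per experiment, since age, sex and host are constant within one, and tested with the quasi-likelihood test of edgeR 4.0.16 (R 4.3.3) after TMM scaling and its default filter on low counts, with Benjamini-Hochberg adjustment over all genes tested and a threshold of 0.05. The rat host was set against the 7 adult experiments as 1 group (6 residual degrees of freedom), and other arms were compared with a coefficient per arm (4 residual degrees of freedom). The rat host and the graft, with 1 experiment each, are assumed to vary like the rest. Differences within an arm used single libraries. On simulated counts for 15698 genes, the rat-host test found 6% of genes changed 2-fold, 40% of those changed 4-fold and 56% at 8-fold, with 3 false calls. The changed genes, raised or lowered, were drawn only from genes above a floor of mean counts. These rates therefore do not cover weakly counted genes. Among the genes covered, 2-fold differences would mostly be missed.

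The members and lists were chosen with earlier results of these data known. Genes given with values in every library were the 12 members with the smallest p against adult cells, the 4 with the smallest p in each other comparison, the smallest differences and the SREBP control genes. No 2 libraries of an experiment agreed within sampling noise. Alternatives covered limma 3.58.1, DESeq2 1.42.0, other scalings, no filter, TPM, single libraries, and leaving out libraries or experiments. Promoter windows came from RefSeq on GRCm38.p6, and motifs were searched with Python 3.11.15; no coordinates were converted.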

Additional observations from a re-analysis of the deposited data

Results flagged for a closer look

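Of 240 sets of 4 libraries (30 members in 8 experiments), only those reaching 10 CPM were eligible, so fewer than 240 were tested. For normally distributed values, chance alone flags about 5% of the sets tested. That rate need not hold for CPM values, since some sets are mostly 0. In 16 sets, a library's gap to the nearest of the others, divided by the range of the 4, exceeded the 95% limit of Dixon's test. Mouse-host experiment 4 held 5 of them: in replicate 1, Mvk at 60.0 CPM, Idi1 at 14.97 and Ebp at 116 were the highest of 4, Sqle was highest in replicate 4 at 181, and Acat2 lowest in replicate 2 at 18.6. In control experiment 1, replicate 1 was lowest for Mvk at 16.2 CPM and highest for Acly at 164. Dhcr7 was highest in graft replicate 3 at 18.3 CPM and in control experiment 2 replicate 4 at 22.3. Insig1 was highest in graft replicate 1 at 28.8 CPM, in mouse-host experiment 1 replicate 1 at 12.0, where the other 3 libraries held none, and in mouse-host experiment 3 replicate 2 at 15.8. Scd1 was seen at 18.6 CPM in mouse-host experiment 2 replicate 4 and at 13.6 CPM in graft replicate 1, with 0 in the other 3 libraries of each. Fibroblast markers summed to 2405 and 415 CPM in these 2 libraries. Control experiment 2 replicate 3, with 3262 CPM of fibroblast markers, held 13.4 CPM of Scd1 but was not flagged. The part of fibroblast RNA in this was not tested. The last 2 of the 16 were Cyp51 at 56.6 CPM in mouse-host experiment 2 replicate 2 and Tm7sf2 at 20.2 CPM in mouse-host experiment 3 replicate 3. No rat-host set was among the 16.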

How the results depend on the processing

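Of 30 members, the count called in rat host against adult was 4. It was 8 with limma voom (experiment as a random effect; the 4 and Cyp51, Nsdhl, Insig1 and Fdps), 7 with limma on TPM, 2 without control experiment 1 or 2, and 1 (Scd2) without mouse-host experiment 2, 3 or 4. It stayed at 4, for the same genes, with DESeq2, RLE scaling, no TMM, no filter, a coefficient per arm, and without the graft, mouse-host experiment 1 or the 2 libraries high in fibroblast markers. In rat host against mouse host, 1 member was called. There were 4 with DESeq2 or without TMM, 8 with voom, 5 on TPM and 3 with no filter. The count was 2 without the fibroblast-high libraries. It was 0 without either control experiment or without mouse-host experiment 2, 3 or 4. In graft against mouse host, 0 were called but 1 with DESeq2 (Hsd17b7) or voom (Msmo1). Among mouse-host experiments DESeq2 called 3 in place of 1, and between control experiments 1 in place of 0. The alternatives by fibroblast markers and by rat-host replicate 1 were chosen after seeing the data. No value changed sign among those called. The causes of these changes were not tested.

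In fits on single libraries with a coefficient per experiment, the error is that between libraries within an experiment. Differences between experiments do not enter it. In rat host against adult, 7 members were called with or without a replicate block. In rat host against mouse host, 6 were called in both fits. Acat2, the gene called on experiment sums, was not among these 6, and neither was Dhcr7. In graft against mouse host 1 was called in both, and among mouse-host experiments the block left 0. The replicate numbers do not pair the libraries: same-numbered libraries of different experiments had a mean correlation of deviations of -0.0072, and 6 of 32 libraries correlated best with their own number. Leaving out 1 library at a time gave 2 to 4 calls in rat host against adult, 0 to 3 against mouse host, 0 to 0 in mouse host against control, 0 to 1 for the graft, 0 to 1 among mouse-host experiments and 0 to 0 between controls. Counting intervals cover counting error only, since no molecular identifiers were used, and a gene with few reads in pools of 10 to 20 cells, such as Insig1 or Scd1, is measured coarsely.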
